A study of Homo sapiens with 17 samples.

Results

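The sites described here carried a peak of full-length FOXA1 and a peak of full-length FOXA2 in U2OS cells, and no peak of either factor once its C-terminal domain (CTD) had been deleted. They were found by merging all peaks that overlapped by at least 1 bp in 4 deposited lists (FOXA1 and FOXA2, each at full length and CTD-deleted) on chromosomes 1 to 22 and X. Merged sites that both full-length lists overlapped, and that neither CTD-deleted list did, were kept. There were 2258 such full-length-only sites, which is 2.18% of the 103347 merged sites and 12.9% of the 17494 sites that both full-length lists held (95% Wilson interval 12.4% to 13.4%). These sites were chosen by the presence and absence of peaks in the 4 lists, so their number and their full-length peak values are descriptions and were not tested.

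The peaks came from ChIP-seq with a Flag antibody in U2OS, a human osteosarcoma line that carried each Flag-tagged factor under a doxycycline-inducible (Tet-on) promoter. The 17 samples were 1 input and 2 biological replicates in each of 8 groups. All 8 groups were induced with doxycycline at 500 ng/ml for 4 days, as the treatment label gives it. The groups expressed FOXA1FL, FOXA1dCTD, FOXA2FL, FOXA2dCTD, FOXA3FL, FOXA3dCTD, SOX2FL or SOX2FLFOXA2CTD, the last a fusion of SOX2 with the FOXA2 CTD. FL stands for full length and dCTD for the CTD-deleted protein. All are introduced proteins in 1 cancer line, and whether a line was 1 clone is not given in the sources used here. Each group is represented by 1 list made from both replicates with IDR (the irreproducible discovery rate, which scores how well peak ranks agree between replicates). No comparison between lists therefore has a replicate check, the read depth is unknown, and the lack of a listed peak is not a lack of binding.

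FOXA proteins are pioneer factors: their winged-helix forkhead domain binds DNA that is still wrapped in nucleosomes and can open it for other regulators. FOXA1 and FOXA2 are known for this role in gut endoderm, liver, breast and prostate, where most of their sites are distal enhancers. The CTD lies outside the DNA-binding domain, and the design of the series asks what it contributes to where a factor is found.

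Promoter sequences are shown first, because full-length-only sites lay at gene starts more often than sites held by all 4 lists. The forkhead core searched was TGTTTAC or TATTTAC on either strand. These are the 250 bases before the start (GRCh38.p14, RefSeq, 5′ to 3′ on the gene's strand) of 6 protein-coding genes with a full-length-only summit in the promoter. They were taken in order of site strength, leaving out promoters whose 250 bases overlap another protein-coding gene. They are CLTC (chr17:59619645-59619894, plus strand), MAGOH (chr1:53238519-53238768, minus strand), MTF2 (chr1:93079033-93079282, plus strand), MED17 (chr11:93784032-93784281, plus strand), TBP (chr6:170554119-170554368, plus strand) and FAM135A (chr6:70413258-70413507, plus strand). None of these 6 sequences holds the core, so they have no capitals.
CLTC: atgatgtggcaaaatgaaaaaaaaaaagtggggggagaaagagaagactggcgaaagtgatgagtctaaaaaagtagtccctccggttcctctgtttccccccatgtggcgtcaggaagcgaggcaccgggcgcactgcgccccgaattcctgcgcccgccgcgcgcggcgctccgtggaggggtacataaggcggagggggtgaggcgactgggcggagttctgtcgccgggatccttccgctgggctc
MAGOH: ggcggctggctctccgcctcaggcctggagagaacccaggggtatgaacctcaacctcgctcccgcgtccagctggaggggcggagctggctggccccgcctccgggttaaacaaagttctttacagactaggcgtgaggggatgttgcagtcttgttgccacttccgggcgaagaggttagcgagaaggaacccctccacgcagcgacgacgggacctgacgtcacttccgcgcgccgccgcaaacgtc
MTF2: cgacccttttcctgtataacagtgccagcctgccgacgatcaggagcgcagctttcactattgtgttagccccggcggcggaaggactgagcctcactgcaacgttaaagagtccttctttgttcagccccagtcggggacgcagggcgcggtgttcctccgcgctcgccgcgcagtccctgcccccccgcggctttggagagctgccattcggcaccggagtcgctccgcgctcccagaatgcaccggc
MED17: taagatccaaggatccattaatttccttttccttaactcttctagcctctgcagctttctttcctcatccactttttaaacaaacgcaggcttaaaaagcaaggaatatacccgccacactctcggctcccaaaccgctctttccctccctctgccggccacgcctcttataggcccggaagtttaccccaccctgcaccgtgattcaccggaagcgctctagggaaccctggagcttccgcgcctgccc
TBP: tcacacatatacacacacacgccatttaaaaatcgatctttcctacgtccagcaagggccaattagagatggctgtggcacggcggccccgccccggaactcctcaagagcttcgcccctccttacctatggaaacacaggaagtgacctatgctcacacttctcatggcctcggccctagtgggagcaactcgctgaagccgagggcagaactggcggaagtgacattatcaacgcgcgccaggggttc
FAM135A: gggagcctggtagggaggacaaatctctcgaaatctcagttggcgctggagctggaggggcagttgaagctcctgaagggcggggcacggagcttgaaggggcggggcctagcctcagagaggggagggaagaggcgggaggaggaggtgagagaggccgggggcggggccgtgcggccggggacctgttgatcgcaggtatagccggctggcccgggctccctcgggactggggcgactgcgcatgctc

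A pair of full-length-only promoters that do hold the core are shown for contrast, with the core in capitals: OR2F2, an olfactory receptor gene (chr7:143934983-143935232, plus strand), and ARID1B, a subunit of a chromatin remodeller (chr6:156775776-156776025, plus strand). In OR2F2 the core began 187 bases before the start and in ARID1B 12 bases before it. Beside them stand a pair of promoters whose sites were in all 4 FOXA1 and FOXA2 lists: RSRC1 (chr3:158109839-158110088, plus strand), with 1 core, and DUSP11 (chr2:73780150-73780399, minus strand), with 3 cores. These 4 were chosen after their values were seen.
OR2F2: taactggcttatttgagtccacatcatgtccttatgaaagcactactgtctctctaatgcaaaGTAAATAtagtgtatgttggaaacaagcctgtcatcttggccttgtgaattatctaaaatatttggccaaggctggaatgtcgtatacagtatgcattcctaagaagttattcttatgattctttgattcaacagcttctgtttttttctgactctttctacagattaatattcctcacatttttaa
ARID1B: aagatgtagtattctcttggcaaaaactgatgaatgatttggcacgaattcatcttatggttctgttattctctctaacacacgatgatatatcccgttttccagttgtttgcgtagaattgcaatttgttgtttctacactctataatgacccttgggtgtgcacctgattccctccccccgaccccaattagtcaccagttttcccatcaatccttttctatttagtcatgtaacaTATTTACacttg
RSRC1: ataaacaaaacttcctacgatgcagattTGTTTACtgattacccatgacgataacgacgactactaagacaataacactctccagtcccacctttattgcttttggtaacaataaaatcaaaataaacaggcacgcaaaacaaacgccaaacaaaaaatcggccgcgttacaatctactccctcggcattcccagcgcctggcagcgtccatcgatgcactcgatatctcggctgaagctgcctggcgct
DUSP11: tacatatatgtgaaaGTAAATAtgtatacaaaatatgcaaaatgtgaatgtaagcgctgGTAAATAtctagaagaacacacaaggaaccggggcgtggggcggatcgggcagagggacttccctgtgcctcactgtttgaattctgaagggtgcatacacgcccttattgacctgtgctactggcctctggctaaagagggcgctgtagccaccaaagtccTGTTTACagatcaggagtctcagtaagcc

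Full-length-only sites lay at gene starts about 3 times as often as sites held by all 4 lists. Of 2130 full-length-only sites on chromosomes other than 8, for which starts were available, 212 (9.95%, 8.75% to 11.3%) had a full-length summit within 1 kb of a RefSeq gene start. The share over all merged sites was 4.4%. Among four-list sites it was 3.37% (297 of 8817), a difference of 6.58 percentage points (95% Newcombe interval 5.32 to 7.98). Intervals on shares and differences cover counting error over sites only, since sites are not replicates of a condition. The nearest start belonged to a protein-coding gene at 171 of the 212 sites and to a long non-coding RNA at 41.

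The summits, taking the nearer of both factors at each site, gathered just upstream of the start. There were 103 (4.84%) in the 500 bases before a start and 66 (3.10%) in the 500 bases after it, against 109 (1.24%) and 73 (0.828%) of the four-list sites. From 1 kb to 5 kb on either side, both classes held under 1% of their sites per 500 bp. The median distance from a summit to the nearest start was 35533 bp for full-length-only sites and 43209 bp for four-list sites, so most sites of both classes were distal.

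**Figure D1:**
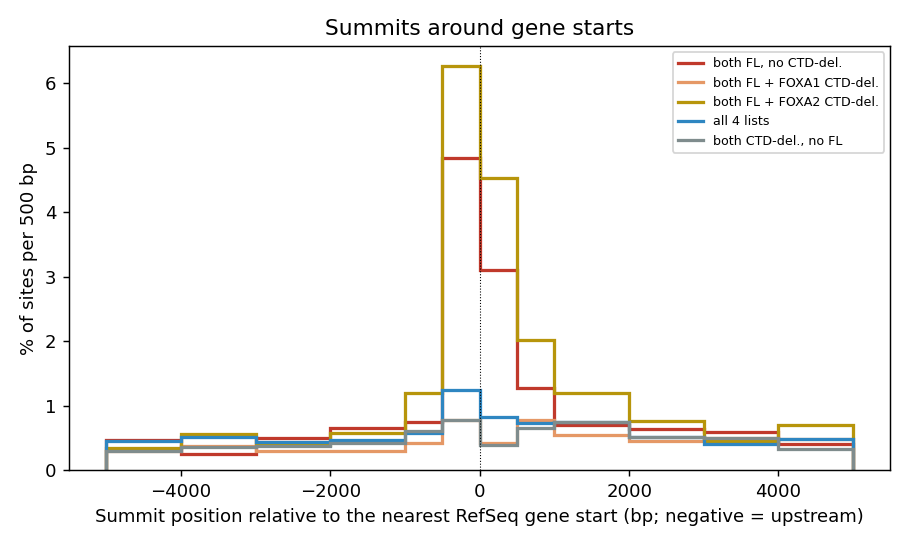
Percent of sites per 500 bp (vertical axis) by position of the full-length summit, or for the class with no full-length peak the CTD-deleted summit, relative to the nearest RefSeq gene start (horizontal axis, bp, negative upstream), in 5 classes; FL is full length and CTD-del. is CTD-deleted. Full-length-only sites reach 4.84% in the 500 bp before the start, and sites that also had a FOXA2 CTD-deleted peak stand above them.

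This position was not particular to full-length-only sites. Sites of both full-length lists that also had a FOXA2 CTD-deleted peak, but none of FOXA1 CTD-deleted, were at gene starts more often still (291 of 2076, 14.02%), and the difference of full-length-only sites from them was −4.06 percentage points (interval −6.03 to −2.10). Sites that also had a FOXA1 CTD-deleted peak alone were there at 2.39% (80 of 3346), a difference of 7.56 points (6.23 to 8.98). The share at starts thus moved with the FOXA1 CTD-deleted list. It was 11.96% over the sites of both full-length lists that lacked a FOXA1 CTD-deleted peak, and 3.10% over those that had one. Sites of both CTD-deleted lists with no full-length peak stood at 2.43%.

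The same order held for either end of a protein-coding gene, a measure that covers chromosome 8 as well. A summit lay within 1 kb of such an end at 223 full-length-only sites (9.88%, 8.71% to 11.2%), with 4.58% over all merged sites. It did so at 3.57% of four-list sites (difference 6.30 points, 5.08 to 7.65), at 2.78% of those with FOXA1 CTD-deleted alone and at 13.98% of those with FOXA2 CTD-deleted alone. The difference from four-list sites was present in each of 4 bins of peak strength, cut at the quartiles (strength is the lowest of the 4 replicate −log10 p values). At full-length-only sites the quartiles of strength (1.64, 1.93 and 2.34) equalled those of the weaker FOXA2FL replicate. The bins thus sort these sites mainly by FOXA2FL and do not match them on FOXA1FL. In the weakest bin 7.88% of full-length-only sites and 4.62% of four-list sites lay at gene ends, and in the next these shares were 12.7% and 3.23%. In the stronger bins they were 11.6% and 3.75%, then 8.85% and 3.19%. For gene starts the strongest bin gave 5 of 106 full-length-only sites (4.72%, 2.03% to 10.6%) against 2.502% of four-list sites (2.02% to 3.10%), and these intervals overlap. When peaks in all lists had to reach a p of 1e-05 in both replicates, 110 full-length-only sites were left, and the difference was 0.188 points (−2.39 to 5.62).

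The genes at these starts included some that nearly every cell uses. Their 157 promoter windows (250 bases before to 50 after a start) belonged to 143 gene symbols, and 126 windows were of protein-coding genes. Full-length-only sites had a summit in a window at 5.45%, against 1.10% of four-list sites and 1.48% of all merged sites. Examples, chosen after the list was seen, are TBP and TAF12 of the basal transcription machinery, MED17 and MED4 of Mediator, and the exon junction complex subunits MAGOH and EIF4A3. CNOT6, CNOT8 and CNOT11 belong to the CCR4-NOT complex that shortens poly(A) tails. The list also held genes of narrower use, such as OR2F2, an olfactory receptor gene, and NRXN3, a very long neuronal gene. The share of either kind among all promoters was not counted, and no test of a theme was made.

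The strongest of the 6 whose sequences are shown was at CLTC, which encodes the clathrin heavy chain. Its site (chr17:59619212-59620231) had −log10 p values of 7.31 and 10.7 in the replicates of FOXA1FL and of 7.42 and 5.02 in those of FOXA2FL. The FOXA1 summit lay upstream, at −71 bases from the start, and the FOXA2 summit 45 bases after it. All 4 values were above 5, and a fusion peak overlapped the site.

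At MAGOH (chr1:53238277-53239263) the values were 5.30 and 10.99 for FOXA1FL and 4.71 and 3.25 for FOXA2FL. MTF2, a partner of Polycomb repressive complexes, had 3.24 and 11.6 for FOXA1FL and 5.25 and 17.998 for FOXA2FL (chr1:93078885-93079828). Its 2 replicates differed widely for both factors, and the same held for FOXA1FL at MAGOH. MED17 (chr11:93783778-93784915) had 3.23, 9.61, 3.02 and 4.11 in that order. TBP, the TATA-binding protein (chr6:170553595-170555055), had 8.00, 8.48, 3.02 and 4.99, and FAM135A (chr6:70413147-70413838) had 4.86, 9.11, 2.71 and 4.01. In all 6 the lowest of the 4 values was a FOXA2FL replicate or, at MTF2, a FOXA1FL replicate.

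The promoters themselves were close to other protein-coding promoters in GC content and held forkhead cores less often than four-list promoters. Their median GC content was 62.7%, against 53% in 109 promoters under four-list summits, 58.7% in all 34961 promoters of 300 bases and 62.3% in those of protein-coding genes. The median number of CG dinucleotides was 25, against 14 under four-list summits and 21 in protein-coding promoters. The forkhead core was found in 12 of the 157 windows (7.64%, 4.43% to 12.9%) and in 27 of the 109 four-list windows (24.8%, 17.6% to 33.6%). It was in 5.97% of all promoters and in 4.80% of those of protein-coding genes. The share under full-length-only summits was therefore close to that of all promoters, and its interval did not reach that of four-list promoters.

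A pair of motifs of general promoters were counted for comparison after the sequences had been seen. CCGGAAG, a core bound by ETS factors, was in 21.0% of the full-length-only windows, 11.9% of the four-list windows and 12.8% of protein-coding promoters. CCAAT, the box bound by NF-Y, was in 41.4%, 39.4% and 34.6%. Both were searched on both strands, and windows of neighbouring starts can overlap. A match describes letters only and does not show a bound site.

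Full-length-only sites had weaker full-length peaks than four-list sites, and in FOXA1FL they were close to the list as a whole. In the FOXA1FL list the −log10 p in the weaker replicate ranged from 2.44 through a median of 3.94 to 17.3. The median was 4.08 over all peaks of that list and 5.08 at four-list sites. The lower and upper quartiles were 3.42 and 4.86 at full-length-only sites, and 3.45 and 5.33 over all peaks of that list. In the FOXA2FL list the range was 1.52 through 1.93 to 15.0, with 2.24 over all peaks and 3.04 at four-list sites. The lowest of the 4 replicate values, called the strength here, had a median of 1.93 at full-length-only sites, 2.27 and 2.34 at sites with 1 CTD-deleted list and 3.02 at four-list sites. The ranges of all classes overlapped.

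**Figure D2:**
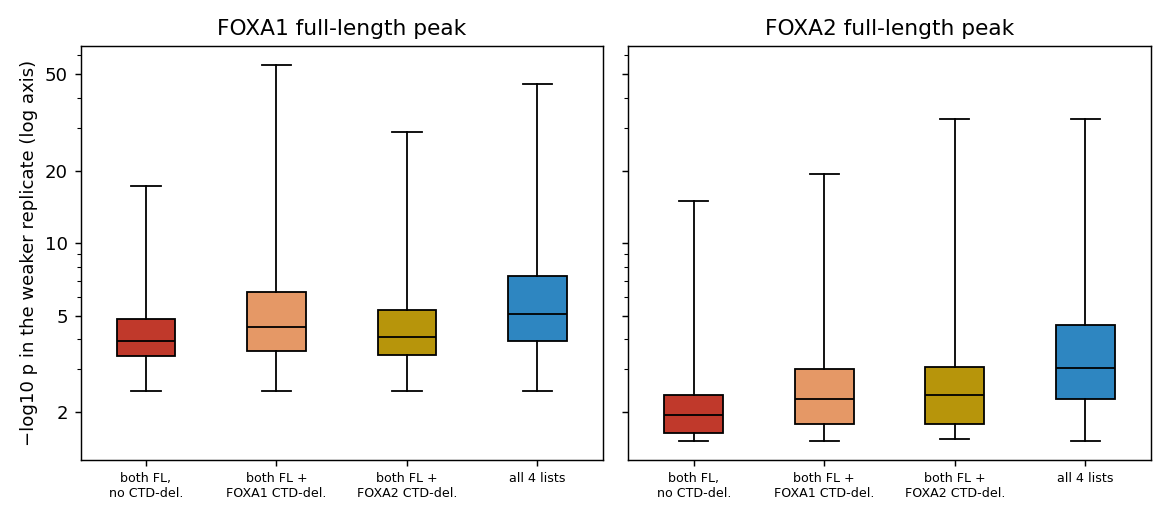
−log10 p of the full-length peak in its weaker replicate (vertical log axis) for FOXA1 (left) and FOXA2 (right) in 4 classes of sites; boxes span the quartiles, the line is the median and whiskers reach the lowest and highest site. Full-length-only sites have the lowest medians, 3.94 and 1.93, and four-list sites the highest, 5.08 and 3.04.

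Few of these sites met a strict limit. A p of at most 0.01 in all 4 replicates was reached by 1094 of them (48.4%), a p of at most 0.001 by 263 (11.6%) and a p of at most 1e-05 by 17 (0.753%). An IDR of at most 0.05 was met by 492 FOXA1FL peaks, by 15 FOXA2FL peaks and by both at 10 sites. That limit is a deposited IDR score of 540, and FOXA2FL peaks mostly fell short of it in other classes too. The upper quartile of their score was 345 at full-length-only sites and 487 at four-list sites. For p, the quartiles of strength were 1.64, 1.93 and 2.34 at full-length-only sites and 2.27, 3.02 and 4.11 at four-list sites. The same counts were not made for other classes. The deposited lists reach different limits, with a largest IDR of 0.200 in FOXA1FL, 0.0501 in FOXA1dCTD, 0.351 in FOXA2FL and 0.25 in FOXA2dCTD. For each factor the full-length list thus reaches a larger IDR than its CTD-deleted list, and the part this has in the absence of CTD-deleted peaks was not tested. Across peaks of a list, the replicates' −log10 p values had a Spearman correlation of 0.10 in FOXA1FL (37532 peaks) and 0.48 in FOXA2FL (45076 peaks), a description of peaks that share the same libraries.

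Full-length-only sites made up less of the stronger sites. With all 17494 sites of both full-length lists cut into 4 bins at the quartiles of strength, full-length-only sites made up 26.8% of the weakest bin, 15.4% and 7.29% of the middle bins and 2.56% of the strongest. This ordering uses the peaks that chose the sites and is a description. By chromosome the share ran from 10.8% on chromosome 4 (121 of 1122) to 16.7% on chromosome 19 (18 of 108), and sites lay on all 23 chromosomes.

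The peaks of both factors lay close to each other. The FOXA1 and FOXA2 summits were a median of 68 bp apart, within 100 bp at 1402 sites (62.1%) and over 500 bp apart at 62. At four-list sites the median was 44 bp. A single peak of each list formed 2249 of the 2258 sites. The sites had a median width of 840.5 bp, narrower than the 1017 bp of four-list sites and wider than the 734 bp of sites with CTD-deleted peaks only.

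The 12 strongest sites had strengths from 5.13 to 14.5, against the median of 1.93. The strongest lay in EXTL3, a glycosyltransferase gene of heparan sulfate synthesis (chr8:28659533-28660780), with −log10 p values of 16.2 and 14.5 in FOXA1FL and 16.8 and 15.0 in FOXA2FL. All 4 were above 14, and a CTD-deleted peak lay 335 bp away. The next lay in EFR3A, whose protein anchors a lipid kinase at the plasma membrane (chr8:131922553-131923523), with 12.5 and 9.81 in FOXA1FL and 14.3 and 15.0 in FOXA2FL. A CTD-deleted peak lay 656 bp from it.

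PHF14, a gene of a PHD-finger chromatin protein, held the next (chr7:11083668-11085500), with 14.4, 16.01, 6.59 and 11.4 in the same order. The site nearest FAM204A (chr10:118197362-118198833, 99828 bp from the gene) had 15.0, 10.8, 6.59 and 13.7, and a CTD-deleted peak 294 bp away. At several of the next sites both FOXA1FL values were higher than both FOXA2FL values. In KCNH5, a voltage-gated potassium channel gene (chr14:62885194-62886663), they were 14.5 and 17.3 against 8.45 and 5.95. In TEC, a tyrosine kinase gene (chr4:48188263-48189371), the FOXA1FL replicates gave 8.85 and 27.8 and the FOXA2FL replicates 5.29 and 5.86. The value of 27.8 was the highest single replicate of the 12 sites, and the FOXA1FL replicates differed most at this site.

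Of the other six, 1 was at a gene start. The site at DIXDC1, a gene of Wnt signalling (chr11:111936501-111937787), had a summit upstream, at −317 bases from the start, with 17.3 and 21.3 in FOXA1FL and 5.47 in each FOXA2FL replicate. It overlapped a FOXA3 CTD-deleted peak. DLGAP1, a gene of a postsynaptic scaffold (chr18:3770529-3772117), had 10.5, 13.8, 7.96 and 5.49 and also held FOXA3 peaks of both forms and a fusion peak. The site 25733 bp from APOH, the gene of the plasma apolipoprotein H (chr17:66254593-66255703), had 13.7, 6.34, 7.60 and 5.95 and held FOXA3 peaks of both forms. Those in WDR70 and nearest ETV1, an ETS factor gene, and EPHA3, an ephrin receptor gene, had strengths of 5.41, 5.53 and 5.13 and no peak of FOXA3, SOX2 or the fusion.

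**Figure D3:**
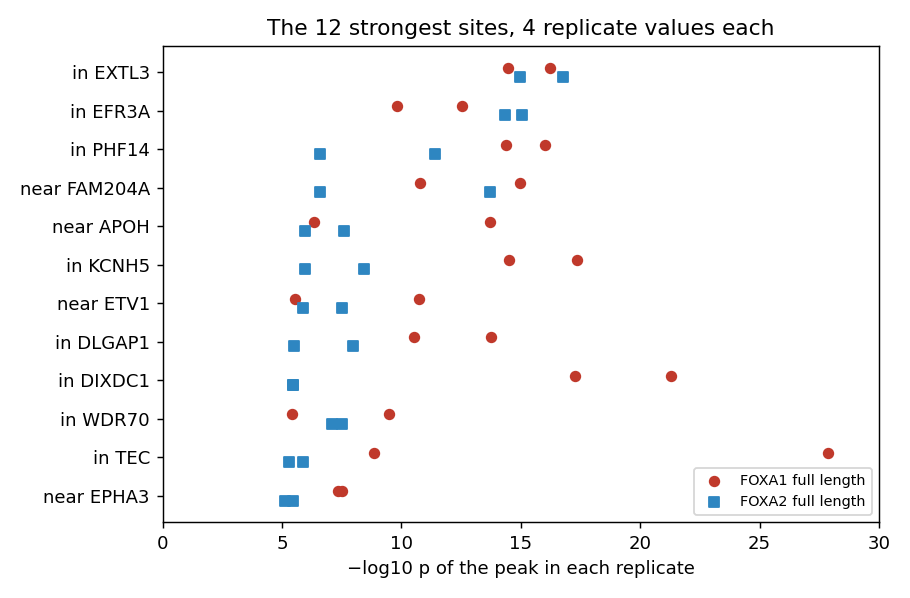
−log10 p in each single replicate (horizontal axis) for the 12 strongest full-length-only sites, named by the gene they lie in or nearest to; circles are the 2 FOXA1 full-length replicates and squares the 2 FOXA2 full-length replicates. EXTL3 has all 4 values between 14.5 and 16.8, while the TEC site has FOXA1 values of 8.85 and 27.8.

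CTD-deleted peaks were seldom adjacent and often in the neighbourhood. The gap to the nearest CTD-deleted peak had a median of 9557 bp. It was at most 100 bp at 6 sites, at most 500 bp at 112 (4.96%), at most 1 kb at 215 (9.52%) and at most 100 kb at 2219 (98.3%). A CTD-deleted peak lay within 10 kb of 51.4% of full-length-only sites. Another such peak lay within 10 kb of 56.0% of four-list sites and of 54% of all merged sites. These gaps come from the lists that chose the sites and were not tested. Another full-length-only site lay within 10 kb of only 55 sites (2.44%) and within 100 kb of 437 (19.4%).

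A CTD-deleted peak lay within 100 bp of only 6 full-length-only sites, and with a margin of 500 bp 2147 sites remained. At the named sites nearest the limit of the rule, gaps or overlaps of 2 to 194 bp set membership. Just inside it, a site near KIF5B, a kinesin gene (chr10:32071109-32071654), lay 2 bp from a CTD-deleted peak, and one in SLC39A8, a metal transporter gene (chr4:102344244-102345633), lay 47 bp from one. Their −log10 p values were 6.08, 3.79, 1.88 and 7.10, and 3.56, 8.37, 1.59 and 4.11. Just outside it, a site near SPATA31A5 (chr9:60853064-60855018) overlapped a FOXA2 CTD-deleted peak by 28 bp, with 3.23, 4.38, 1.59 and 2.46. One at GSK3B, a kinase gene (chr3:120092677-120095869), overlapped such a peak by 194 bp, with 2.45, 10.2, 2.71 and 12.2. The values inside and outside the rule overlapped.

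FOXA3, a close relative of FOXA1 and FOXA2, was found at fewer full-length-only sites than four-list sites. A FOXA3 peak of either form overlapped 63 of them (2.79%, 2.19% to 3.55%), against 6.43% of all merged sites. The share was 23.3% at four-list sites (difference −20.5 points, −21.6 to −19.4), 16.4% at sites with FOXA2 CTD-deleted alone (difference −13.6, −15.3 to −12.0) and 5.17% at sites with FOXA1 CTD-deleted alone (difference −2.38, −3.36 to −1.35). It was also higher, at 8.76%, where both CTD-deleted lists but no full-length list had a peak. It was lower at sites of a single list, at 1.57% for FOXA1 full length, 0.737% for FOXA2 full length, 2.56% for FOXA1 CTD-deleted and 2.42% for FOXA2 CTD-deleted, so a low share was not particular to full-length-only sites. FOXA3FL peaks were at 53 sites (2.35%, with 5.5% over all merged sites) and FOXA3dCTD peaks at 61 (2.70%, with 6.17%), with 51 sites in common. The FOXA3 lists share 4981 identical rows out of 6082 and 6763 on these chromosomes, so the forms of FOXA3 are not independent here. With those rows left out, the difference from four-list sites was −4.76 points (−5.33 to −4.11).

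The FOXA3 shares were higher in stronger bins of sites, and four-list sites stood higher in each bin. Among full-length-only sites they were 1.29%, 2.15%, 6.42% and 11.5% from the weakest to the strongest bin, and among four-list sites 14.3%, 16.1%, 23.8% and 30.5%. At sites with FOXA1 CTD-deleted alone they were 2.10%, 3.39%, 7.19% and 12.4%, and in each bin the interval overlapped that of full-length-only sites. The median strength of the 63 sites with FOXA3 was 2.84, above the 1.93 of all full-length-only sites. The FOXA3 lists were short, at 6130 and 6813 peaks before the limit to these chromosomes.

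SOX2 was rarer still, and the fusion of SOX2 with the FOXA2 CTD was at 74 sites. SOX2 peaks overlapped 10 sites (0.443%, with 0.983% over all merged sites) and fusion peaks overlapped 74 (3.28%, with 2.76% over all merged sites). Of these, 9 sites had both, 65 had the fusion only and 1 had SOX2 only. The SOX2 list holds 1375 peaks and the fusion list 7895, and the latter reaches an IDR of 0.920, so these numbers are not a measure of affinity. For SOX2 or the fusion together the share was 3.32% at full-length-only sites and 2.94% over all merged sites. It was 3.72% at four-list sites, a difference of −0.397 points (−1.17 to 0.501), which does not exceed counting error. Taken apart, SOX2 peaks were at 1.38% of four-list sites, a difference of −0.941 points (−1.27 to −0.512). Fusion peaks were at 3.55% of them, a difference of −0.273 (−1.04 to 0.618). Against sites with FOXA1 CTD-deleted alone the SOX2 difference was −0.428 (−0.843 to 0.0230). The fusion difference from those sites was 1.23 points (0.388 to 2.14). From sites with CTD-deleted peaks only it was 1.19 (0.391 to 2.09). From sites with FOXA2 CTD-deleted alone it went the other way, at −2.42 (−3.66 to −1.21).

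**Figure D4:**
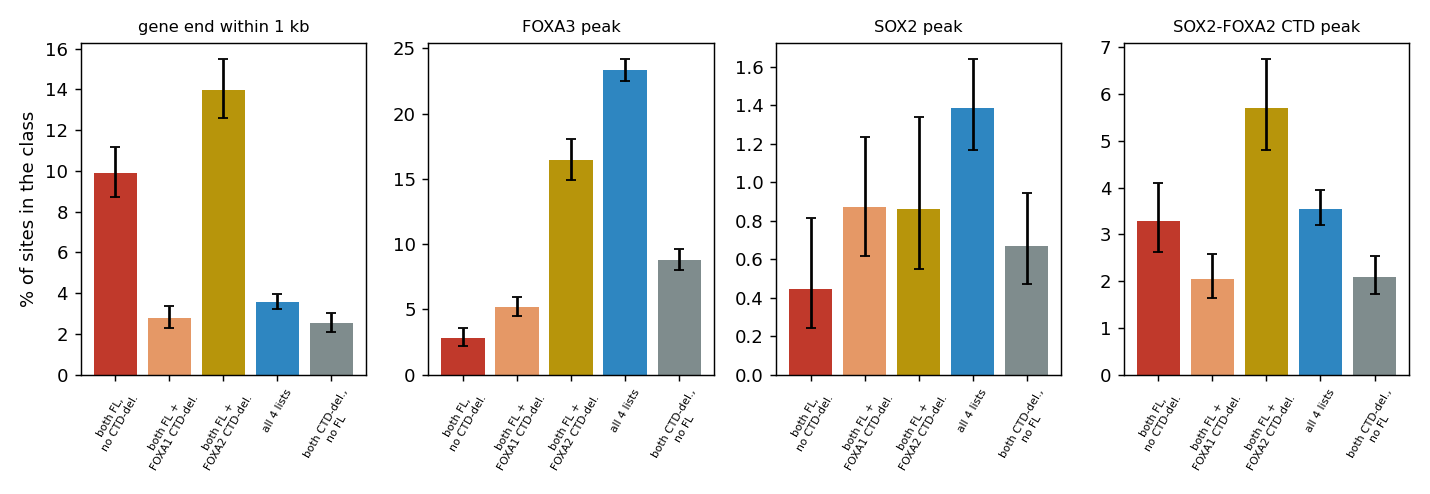
Percent of sites (vertical axis, each panel with its own scale from 0) with a protein-coding gene end within 1 kb, a FOXA3 peak of either form, a SOX2 peak and a SOX2-FOXA2 CTD fusion peak, in 5 classes; bars are shares and error bars 95% Wilson intervals. Of these 5 classes, full-length-only sites have the lowest FOXA3 share, 2.79%, and the highest gene-end share but for the class with a FOXA2 CTD-deleted peak, 9.88% against 13.98%.

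Fusion peaks at full-length-only sites were more frequent at gene starts than away from them. At starts, 28 of 212 sites had one (13.2%, 9.30% to 18.4%), and away from starts 43 of 1918 (2.24%, 1.67% to 3.01%). The fusion list of the first replicate alone overlapped 207 sites (9.17%, with 7.69% over all merged sites). It gave the same order, at 32.1% and 6.36%. This list overlapped 11.2% of four-list sites, a difference of −1.99 points (−3.29 to −0.585). Its share was 14.6% with FOXA2 CTD-deleted alone, 10.3% with CTD-deleted peaks only and 5.81% with FOXA1 CTD-deleted alone. The SOX2 list of the first replicate overlapped 61 sites (2.70%, with 3.63% over all merged sites and 6.01% at four-list sites). SOX2 peaks were at 1 site at a start and 9 away. Four-list sites showed 9.43% at starts (6.60% to 13.3%) and 3.42% away for the fusion, and 27.6% and 10.5% with the first-replicate list. Their interval at starts overlapped that of full-length-only sites, so the order was not particular to these. With FOXA2 CTD-deleted alone the fusion shares were 14.4% at starts and 4.48% away, and with FOXA1 CTD-deleted alone 8.75% and 2.02%. Sites with CTD-deleted peaks only showed 1.90% and 2.08%. FOXA3 at full-length-only sites was at 5.66% of starts (3.27% to 9.63%) and 2.29% of other sites (1.71% to 3.07%), while at four-list starts it was at 36.0%.

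Most sites with a SOX2 peak lay far from genes. Of the 10, 7 lay in the longest gene-free stretch of a chromosome, and of the 74 with the fusion 11 did. These stretches held 15 (0.664%) of all full-length-only sites, 1.54% of four-list sites and 3.78% of all merged sites. How reliably reads map there was not tested. The strongest site with a SOX2 peak, on chromosome 13 (chr13:16875862-16876818), was 2297432 bp from the nearest protein-coding gene, TUBA3C. Its −log10 p values were 18.8, 3.35, 4.65 and 4.08. The next, on chromosome 11 (chr11:53174099-53174387), was 1428826 bp from OR4C46, with 3.23, 8.48, 3.62 and 8.00. Both also had a fusion peak and a FOXA3FL peak. No peak of FOXA3, SOX2 or the fusion was listed at 2132 of the 2258 sites (94.4%), against 91.7% of all merged sites. The share was 93.9% at sites with FOXA1 CTD-deleted alone, 79.2% at those with FOXA2 CTD-deleted alone and 75.4% at four-list sites.

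About as many full-length-only sites lay inside protein-coding genes as outside. The midpoint was inside one at 1138 sites (50.4%, 48.3% to 52.5%), with 45.3% over all merged sites. The share was 47.8% at four-list sites (difference 2.56 points, 0.265 to 4.85) and 43.8% at sites with CTD-deleted peaks only (difference 6.55, 4.04 to 9.05). The first difference did not exceed counting error outside the gene-free stretches (2.15, −0.157 to 4.45) or when all annotated genes were counted (1.66, −0.573 to 3.87). Exons and introns could not be told apart with the gene table used.

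Within 10 kb of a full-length-only site lay 1451 of 19974 protein-coding genes (7.26%), against 3767 (18.9%) for four-list sites. Longer genes had one more often: 2.65% of genes under 10 kb, 7.67% of those of 30 to 100 kb and 31.6% of those over 300 kb. ZCCHC7, a gene of RNA surveillance, held 4 sites, the most of any. WDR70, PRKDC (the catalytic subunit of DNA-dependent protein kinase), CCSER1, TSHZ2 (a zinc finger factor) and PLOD2 (a collagen lysyl hydroxylase) held 3 each. In ZCCHC7 the strongest of the 4 sites had −log10 p values of 5.23 and 3.40 in FOXA1FL and 2.74 and 2.09 in FOXA2FL.

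**Figure D5:**
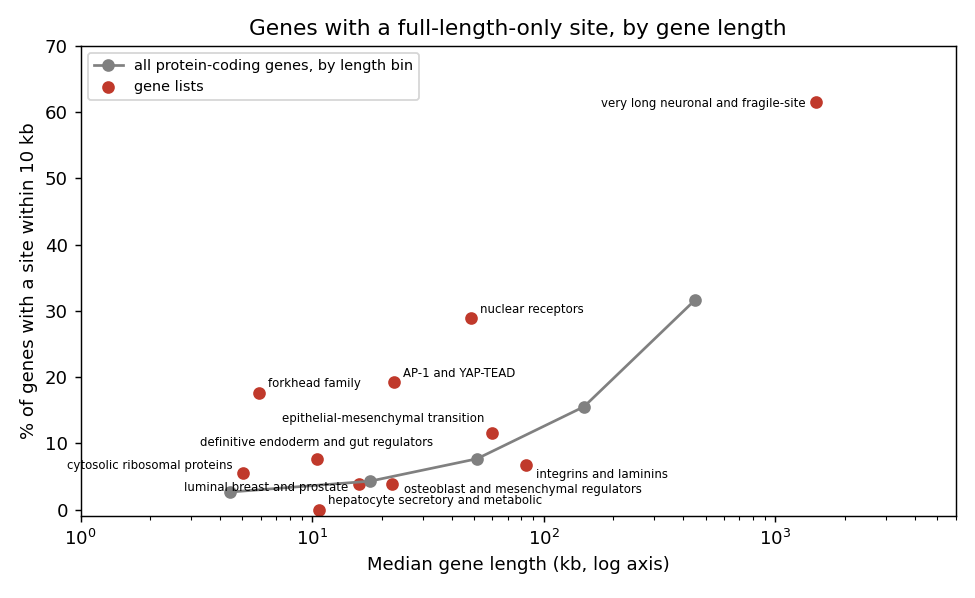
Percent of genes with a full-length-only site within 10 kb (vertical axis) against the median gene length (horizontal log axis, kb); red points are the 11 gene lists and grey points joined by a line are all protein-coding genes in 5 length bins. The very long neuronal genes stand highest at 61.5%, and the grey line climbs from 2.65% to 31.6%.

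Gene lists were read against this background of 7.26% and against gene length. Very long neuronal and fragile-site genes had a site at 16 of 26 (61.5%), with 27 sites in all. Their median length was 1505 kb, beyond the median of 450.2 kb in the longest bin. LSAMP, a neuronal adhesion gene, held their strongest site (chr3:116344190-116345509), with 19.5 and 15.9 in FOXA1FL and 4.27 and 5.92 in FOXA2FL. CSMD3 had the most sites, at 3. More of the 26 genes, 24 (92.3%), had a four-list site within 10 kb, and 19 had a site with CTD-deleted peaks only. Among all genes over 300 kb, 71.1% had a four-list site and 422 of 771 a site with CTD-deleted peaks only. Over all protein-coding genes these were 18.9% and 1943 of 19974.

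Nuclear receptor genes, the ligand-controlled factors that often share enhancers with FOXA proteins, had a site at 13 of 45 (28.9%), with 12 of 45 near a four-list site. The 13 included RARB, RORA, VDR, THRA, THRB, PPARA and RXRA. At NR4A2, an orphan receptor, the strongest site (chr2:156324371-156326128) had 7.53, 7.74, 4.33 and 9.74, so that all 4 values were above 4. NR2C1 had 2 sites within 10 kb.

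Forkhead genes other than FOXA had a site at 6 of 34 (FOXB1, FOXF1, FOXF2, FOXN1, FOXN4 and FOXP2) and a four-list site at 5 of 34. In FOXN4 (chr12:109288951-109289794) the values were 3.45, 4.38, 2.27 and 2.46, all low. AP-1 and YAP-TEAD genes had a site at 5 of 26 (AMOTL2, ATF2, ATF3, LATS1 and TEAD1). The site near LATS1, a Hippo pathway kinase, lay at the start of its neighbour KATNA1, with a strength of 2.62.

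The other lists had few. Regulators of epithelial-mesenchymal transition had 3 of 26 (SNAI2, ZEB1 and ZEB2), endoderm and gut regulators 2 of 26 (HNF4G and LEFTY1), and luminal breast and prostate genes 1 of 26 (SLC39A6, a zinc transporter). Osteoblast and mesenchymal regulators had 1 of 26 (RUNX2, the master regulator of bone formation, from a site in its neighbour SUPT3H), against 8 of 26 near a four-list site. Hepatocyte secretory and metabolic genes had 0 of 26, with 3 near a four-list site. Integrin and laminin genes had 2 of 30 (ITGA3 and LAMA5), against 9 near a four-list site. Cytosolic ribosomal protein genes had 2 of 36 (RPL27 and RPS12), the same number as for four-list sites. At RPL27 the summit was at −148 bases from the start, with 3.99, 3.98, 3.43 and 5.49. These lists are small, no test was made on them, and nothing particular is read from them.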

How the data were processed

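Flag ChIP-seq peaks of 8 factor groups, 2 replicates each, were used as 8 combined lists; the input was not analysed here. Of 14 deposited lists 10 were used, and 4 were copies of others. The authors used hg38, Bowtie2 2.4.4 and MACS2, per the submitters' processing notes; the IDR limits and the control are not given in the sources used here. The deposited IDR score equals log2(1/IDR) multiplied by 125. In these lists each peak has a deposited −log10 p per replicate, unnumbered. The deposited fold enrichment (a ratio over local background) of the lists of the first replicate was not used. Depth is unknown, so no value has a sequencing error.

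Positions are 1-based. Peaks on chromosomes 1 to 22 and X were merged and classed by list in Python 3.11.15 (pandas 2.3.3), checked on simulated lists. Genes came from the RefSeq tables of GRCh38.p14 (59098 genes, and 34961 promoters on 22 chromosomes, without chromosome 8). The members and gene lists were chosen with earlier results of these data known. Sites were named by rule: the 12 strongest; the 6 genes with most sites; per gene list the strongest and most frequent; the 2 strongest with FOXA3FL, SOX2 and the fusion; up to 6 in promoters of protein-coding genes whose upstream bases overlap no other such gene; and 2 on each side of the rule's limit. Shares have 95% Wilson intervals and differences Newcombe intervals; no p-value was computed over sites. Alternatives were stricter IDR or p limits, equal list sizes, a margin of 500 bp, summits, bins of strength, and other gene definitions. Other comparators, the handling of shared FOXA3 rows, the first-replicate lists and gene starts were added after seeing the data.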

Additional observations from a re-analysis of the deposited data

Results flagged for a closer look

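Outside chromosomes 1 to 22 and X, which the comparisons did not use, the same rule found 29 full-length-only sites among 153 sites of both full-length lists (18.95%). They lay on 28 contigs, and 0 lay on chromosome Y. This was flagged because the comparisons leave these sequences out; no control peak list was used.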

How the results depend on the processing

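Of 90 alternatives over 8 results, 56 were labelled the same, 14 weaker, 5 reversed, 13 moved and 2 stronger. For a difference, the same means that its interval still excluded 0 on the same side, or still included 0. Weaker means that the interval came to include 0, and stronger that it came to exclude 0. Reversed means that a difference whose main interval excluded 0 changed sign. For counts and the share, the same means a value near the main one and moved a value further off. The SOX2-or-fusion difference, −0.397 in the main setting, changed sign in some of these, up to 13.8 points, with intervals that included 0. The FOXA3 difference between full-length-only and four-list sites kept its direction and call in its alternatives, from −35.9 points to −4.76 with the rows shared by both FOXA3 lists left out. Against other classes it was −2.38 (FOXA1 CTD-deleted alone) and −13.6 (FOXA2 CTD-deleted alone). With an IDR of at most 0.05 in all 4 lists, 16 sites were left, 1.45% of the sites of both full-length lists, near 9 genes; the gene-end difference was 3.13 points, the genic one 2.72 and the CTD-deleted-neighbour one 23.1. With that limit in the full-length lists only, these were 10 sites, 0.908%, 6 genes, 7.15, 2.90 and 21.6. All of these differences had intervals that included 0, for gene ends −2.19 to 25.2 and −1.16 to 37.6. The neighbour difference, −4.58 in the main setting, changed sign under both limits. With both replicates of every peak at a p of at most 1e-05 the same values were 110 sites, 6.92%, 73 genes, 0.188, 4.65 and 1.42. The intervals of these differences also included 0, and the neighbour difference again changed sign. Under that p limit the SOX2-or-fusion difference passed its threshold at −5.38, as it did at −2.50 with the first-replicate lists. The share was 17.5% with equal numbers of strongest peaks, 12.3% with a margin of 500 bp and 14.1% with summits within 100 bp. The genic difference was 0.597 with summits, 2.15 outside gene-free stretches, 1.66 with all genes, and 2.75, 5.70 and −4.54 in the second to strongest bins of strength. The neighbour difference was −2.81, −3.80 and −4.70 in the weakest, the third and the strongest bin. All of these genic and neighbour differences had intervals that included 0. The gene-end difference changed sign against sites with FOXA2 CTD-deleted alone, at −4.11 (−6.01 to −2.21). Within 50 kb, 2716 genes had a site. Fewer sites under the strict limits widen the intervals; for the other changes the cause was not tested. No paired analysis was possible because each group has 1 combined list whose replicate columns carry no number, and for the same reason no replicate could be left out.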
